A study of Drosophila melanogaster with 4 samples.

Results

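The replication-dependent histone genes of Drosophila melanogaster stand in tandem repeats on chromosome 2L, and the peaks of the transcription factor Ribbon (Rib) over them are described here. The members are the 111 genes of the RefSeq gene table whose symbol begins with His1, His2A, His2B, His3 or His4 and a colon, out of 13946 genes that code for protein and lie on chromosomes 2, 3, 4, X or Y. They are 23 His1, 23 His2B, 20 His2A, 22 His4 and 23 His3 genes. Every gene with such a symbol was taken, whatever its peaks, but the set was chosen with earlier results of these data known. All lie between the first gene, His1:CG33801, and the last, His3:CG33866 (dm6, 2L, 21416953 to 21541681, 124.729 kb). Within these bounds lie 120 of 4196 peaks from embryos with the fkh-Gal4 driver and 15 of 907 peaks from embryos with the sage-Gal4 driver.

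The study profiled Rib by chromatin immunoprecipitation and sequencing (ChIP-seq). Embryos of stages 11 to 16 carried UAS-rib-GFP, a transgene for GFP-tagged Rib that is expressed wherever a Gal4 driver is active. In 1 group the driver was fkh-Gal4 and in the other sage-Gal4, each of them a driver for the salivary gland of the embryo. Both groups thus carry the same added, tagged Rib. The GFP antibody reads the tagged protein, not the Rib of the embryo itself. Each driver has 1 ChIP library and 1 input library, each merged from 3 collections. The deposited lists give chromosome, start and end for each peak, with no height, score or read count. Depth is therefore unknown, there is no replicate error, and differences between the drivers are given as values without a test.

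Histones package DNA into nucleosomes. Histone H2A, H2B, H3 and H4 form the core, and histone H1 binds the linker DNA. In flies the 5 genes are repeated many times as a unit and are transcribed together when DNA is replicated, within a nuclear compartment called the histone locus body. His2A and His2B are transcribed away from each other from a shared promoter, and His3 and His4 from another, so the spaces between these pairs hold promoters. Rib itself belongs to the BTB family of nuclear proteins and binds DNA through a Pipsqueak motif. It is known for its part in shaping the salivary gland and the trachea.

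In map order, from the lower to the higher coordinate, each repeat holds His1, His2B, His2A, His4 and His3. The assembly holds 23 such repeats. Of these, 19 are complete and 4 have a histone pseudogene in the place of 1 gene. A pseudogene stands in the His2A place of repeats 1, 3 and 5 and in the His4 place of repeat 23. From one His1 gene to the next the spacing was 4843 to 5151 bp (median 5045, n = 21), leaving out the longest. Between repeats 5 and 6 the table has no gene for 10336 bp (2L, 21440716 to 21451051). The space from His3 to the next His1 was otherwise 978 to 1286 bp long.

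In the fkh-Gal4 embryos, peaks covered most of each repeat from His1 to His3 and left the long space between repeats bare. All 111 genes were overlapped by a peak (100%, exact 95% interval 96.7 to 100). In the sage-Gal4 embryos 13 of 111 were (11.7%, 6.39 to 19.2). Over all 13946 protein-coding genes, the members included, a peak overlapped the gene body of 8.15% with fkh-Gal4 and of 3.71% with sage-Gal4. Histone genes are short, and short genes meet fewer peaks. Among the 2499 other protein-coding genes between 412 and 1023 bp long, the lengths of the shortest and longest member, the shares were 1.04% with fkh-Gal4 and 0.6% with sage-Gal4. The intervals cover counting error in these lists only. The copies are nearly identical, no source used here says how reads that match several places were treated, and the 111 genes are not independent of each other.

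**Figure D1:**
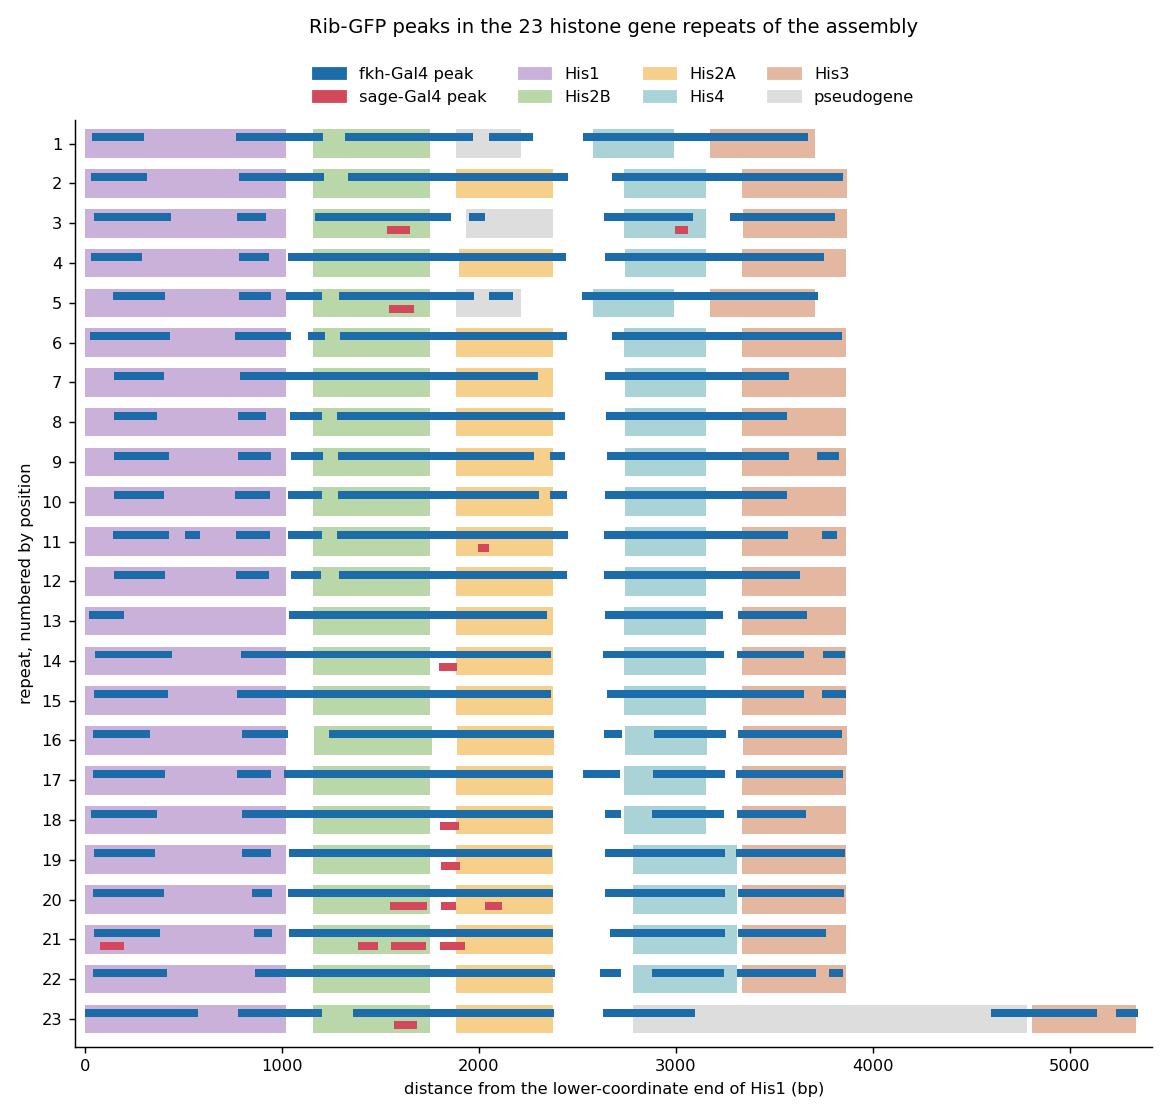
Map of the 23 histone repeats, 1 per row in the order of their positions. The horizontal axis is the distance in bp from the lower-coordinate end of His1, pale boxes are genes or pseudogenes, and the dark bars are fkh-Gal4 peaks (upper bar in a row) and sage-Gal4 peaks (lower bar). The fkh-Gal4 bars meet every gene place in all 23 repeats, with edges that differ between repeats. The sage-Gal4 bars stand in 9 repeats, 13 of the 15 from His2B to His2A.

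Peaks covered 51.7% of the array with fkh-Gal4 and 1.32% with sage-Gal4. The fkh-Gal4 peaks of the array made up 2.86% of that list and 9.05% of the sequence in it. The sage-Gal4 peaks of the array made up 1.65% of their list and 1.56% of its sequence. Leaving out the 10336 bp without a gene, an alternative chosen after seeing the data, raised the covered share to 56.4% with fkh-Gal4 and to 1.44% with sage-Gal4. For comparison, fkh-Gal4 peaks covered 0.315% of the bodies of all other protein-coding genes, and sage-Gal4 peaks covered 0.0636%. Multi-copy genes elsewhere were compared as well. Counted by gene, fkh-Gal4 peaks overlapped 88 of 96 5S ribosomal RNA genes and 5 of 6 Hsp70 copies. For sage-Gal4 peaks the counts were 0 of 96 and 2 of 6. A high share of overlapped copies with fkh-Gal4 was thus not particular to the histone genes. The 5S ribosomal RNA array (96 genes, 36.717 kb) was covered by fkh-Gal4 peaks over 44.7% of its length and held 0 sage-Gal4 peaks. The bodies of the 6 Hsp70 copies were covered over 2.68% with fkh-Gal4 and 0.367% with sage-Gal4.

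The fkh-Gal4 peaks of the array were wide. Their median width was 366.5 bp (quartiles 172.25 and 926, range 70 to 1598, n = 120), against 120 bp in the rest of the list (quartiles 88 and 184, range 70 to 1496, n = 4076). The array held 25 peaks of 1000 bp or more and the rest of the list held 4. Of the 10 widest fkh-Gal4 peaks, 8 lay in the array, and of the 100 widest, 47 did. The sage-Gal4 peaks of the array were as narrow as those elsewhere, with a median of 101 bp (quartiles 88 and 125.5, range 57 to 186, n = 15) against 102 bp (quartiles 76 and 141, range 57 to 382, n = 892). Width is not a measure of strength here, since the lists hold none.

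**Figure D2:**
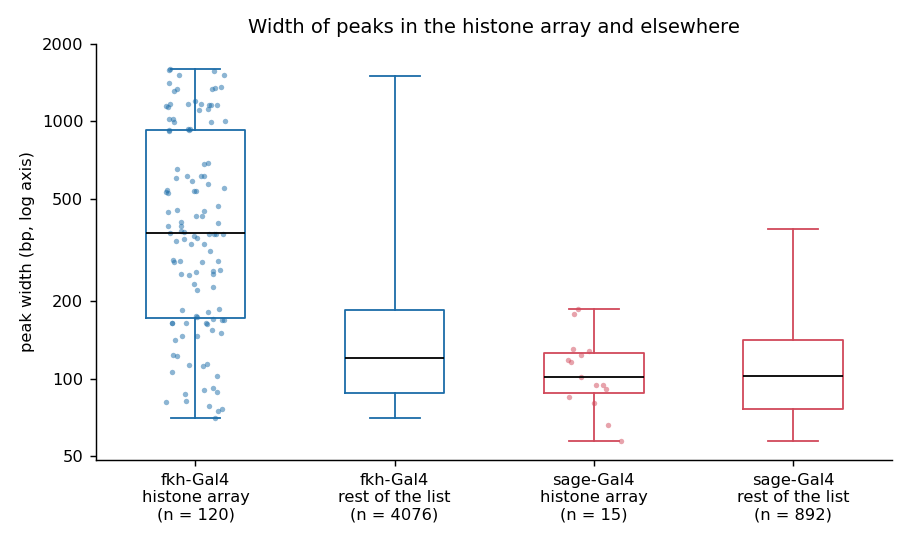
Width of each peak in bp on a log axis, for the histone array and for the rest of each list. Boxes span the quartiles, black lines are medians, whiskers reach the lowest and highest value, and points are the single peaks of the array. The fkh-Gal4 peaks of the array have a median of 366.5 bp against 120 bp elsewhere, and the sage-Gal4 peaks 101 bp against 102 bp.

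Taken by gene, the core histones His2B, His2A and His4 were covered almost whole with fkh-Gal4. His2A, which encodes a core histone, had 97.3% of its bases under peaks (single genes 83.0% to 100%, median 100%, n = 20). His2B, the partner of His2A in the nucleosome, had 92.5% (73.4% to 100%, median 98.8%, n = 23). His4 had 91.3% (64.9% to 100%, median 100%, n = 22). A whole gene lay under peaks in 11 His2A, 11 His2B and 14 His4 copies.

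His3 and His1 were covered less. His3 had 78.0% of its bases under fkh-Gal4 peaks (44.0% to 100%, median 81.9%, n = 23), and 1 copy was covered whole. His1, the gene of the linker histone and the longest of the 5 at 1023 bp, had 49.0% (16.9% to 80.2%, median 50.4%, n = 23), and 0 copies were covered whole. The lowest value was that of His1:CG33834 in repeat 13, which had 1 peak of 173 bp near its lower-coordinate end. The highest was that of His1:CG33864 in repeat 23. Altogether 97 of 111 genes were covered over 50% or more of their length, and the 14 others were 11 His1 and 3 His3 genes.

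With sage-Gal4, the genes overlapped were mostly His2A and His2B. They were 6 of 20 His2A genes (30%, exact interval 11.9 to 54.3), 5 of 23 His2B genes (21.7%, 7.46 to 43.7), 1 of 23 His1 genes (4.35%, 0.110 to 21.9), 1 of 22 His4 genes (4.55%, 0.115 to 22.8) and 0 of 23 His3 genes (upper bound 14.8%). The His2A count depends on the rule of 1 bp. Counted by a peak centre inside the gene, it was 2 of 20 for His2A and 5 of 23 for His2B. With peaks wider than the median of the list alone, it was 1 of 20 and 5 of 23. The largest covered share of a gene was 46.9%, at His2B:CG33872, which had 2 peaks. It was 31.3% at His2B:CG33874, whose 186 bp peak (2L, 21523165 to 21523350) was the widest of this driver in the array. The narrowest, of 57 bp (21478296 to 21478352), lay in His2A:CG33829. The other 98 histone genes had no sage-Gal4 peak over them.

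The spaces between genes fell into 3 kinds with fkh-Gal4. Those within the gene pairs and between His1 and His2B were mostly covered. The space between His2B and His2A, which holds their shared promoter, was covered over 97.4% of its bases and lay wholly under a peak in 22 of 23 repeats. The exception was repeat 3, with a pseudogene in the His2A place and 57.2% covered. The space between His4 and His3, as the gene table bounds it, was covered over 86.7% and lay wholly under peaks in 14 of 23 repeats. Its length differs with the gene table: it is 25 bp in the 5 repeats from 19 on, where the entry in the His4 place is longer, and 181 to 188 bp in the 18 others. The 14 thus include repeats 19 and 23, where only those 25 bp were counted. In repeat 19 a gap of 57 bp lay in the longer His4 entry and ended 29 bp before His3. The short space between His1 and His2B was covered over 84.1% (0% to 100%, median 93.4%).

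The space between His2A and His4 was covered over 34.6% (15.2% to 51.5%). The covered bases lay along its edges and, in 4 repeats, under a separate small peak that touched neither His2A nor His4. Repeats 16, 17, 18 and 22 had that peak, of 81 to 186 bp.

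The long space from His3 to the next His1 stood apart. In 22 such spaces, 34696 bp in all, 15 bp lay under a fkh-Gal4 peak, the edge of a peak that ran past the end of His3 in repeat 5. No peak centre of either driver fell there. With sage-Gal4 this space had 0 bp under peaks, as had those between His1 and His2B, between His2A and His4 and between His4 and His3. The only covered space was that between His2B and His2A, at 12.9% of its bases.

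**Figure D3:**
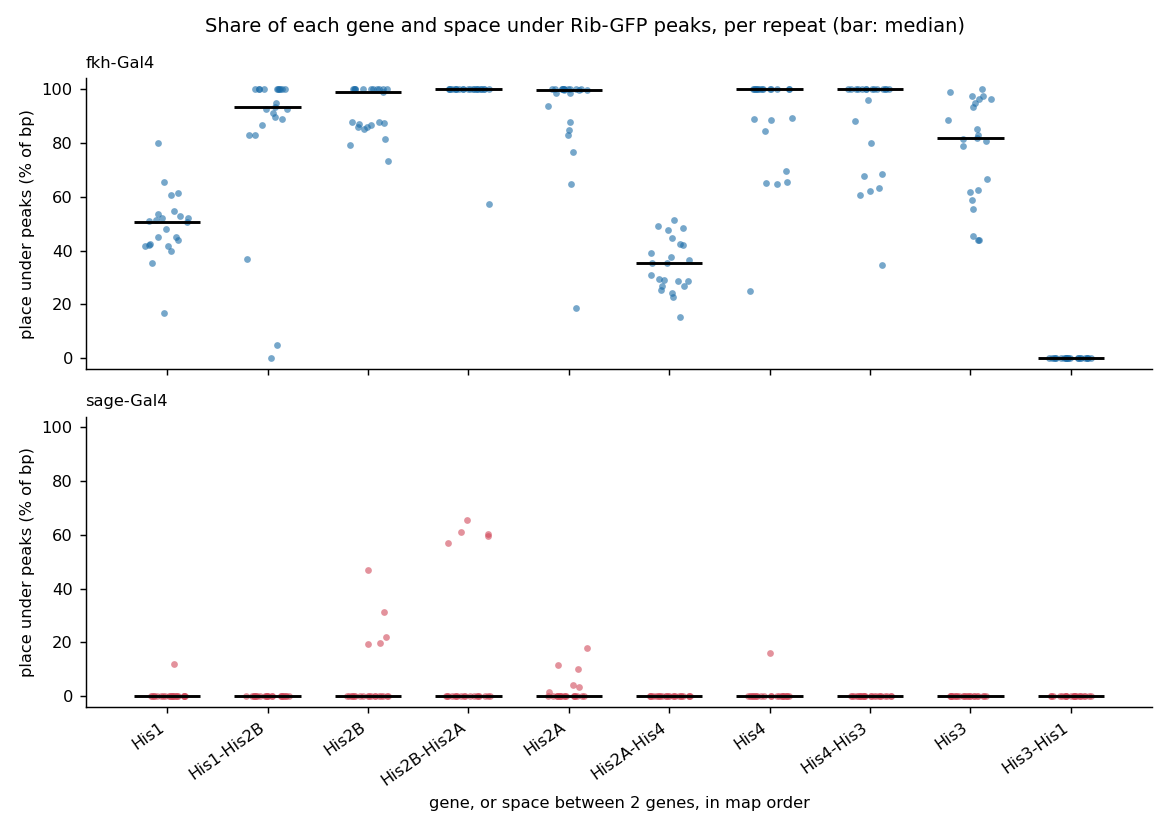
Share of each gene and of each space between genes that lies under peaks, in percent of its bp, with 1 point per repeat and a bar at the median; fkh-Gal4 is above and sage-Gal4 below. In the fkh-Gal4 panel the medians run from 100% at His2B-His2A, His4 and His4-His3 to 50.4% at His1, 35.3% at His2A-His4 and 0% at His3-His1. Pseudogenes are plotted in the place they occupy.

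Counted by peak centre, 95 of 120 fkh-Gal4 peaks lay in a gene or pseudogene (79.2%, exact interval 70.8 to 86.0) and 25 in a space. Of the sage-Gal4 peaks, 10 of 15 did (66.7%, 38.4 to 88.2), and the 5 others lay between His2B and His2A. From the lower-coordinate end of His2B to the higher-coordinate end of His2A stood 27 of 120 fkh-Gal4 centres (22.5%, 15.4 to 31.0) and 13 of 15 sage-Gal4 centres (86.7%, 59.5 to 98.3). A wide peak has 1 centre, however many genes it reaches. A single fkh-Gal4 peak reached both His2B and His2A, or the pseudogene in its place, in 22 of 23 repeats. Often that peak began inside His2B or ended inside His2A, so it did not hold both genes whole. A single peak reached both a His4 and a His3 gene in 13, among them repeat 19, where it met the edge of a longer His4 entry. In repeat 23 a single peak reached His3 and the pseudogene in the His4 place. The widest, of 1598 bp in repeat 15, reached into His1:CG33840 and spanned His2B:CG33884 and most of His2A:CG33841. With it, 6 peaks met 3 genes, 31 met 2 genes and 75 met 1 gene, and 8 met none of the 111.

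Along the repeat, the edges of the fkh-Gal4 peaks recurred in part from copy to copy, within the ranges that follow. The first peak began 2 to 149 bp inside His1. In 16 repeats it began within 49 bp of the lower-coordinate end of the gene. In repeats 5 and 7 to 12 it began between 141 and 149 bp inside, so this group holds 6 neighbours in a row. The peak ended 195 to 574 bp from that end (median 402). The middle of His1 followed without a peak: from 585 to 759 bp, 0 of 23 repeats were covered.

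In most repeats the second stretch began in the upper part of His1, but in repeat 13 it began past the end of that gene. Peaks in many repeats left gaps in this stretch, near the higher-coordinate end of His1 or inside His2B. The bases from 1363 to 1856 bp after the lower-coordinate end of His1, a run of 494 bp that takes in most of His2B and most of the space after it, lay under a fkh-Gal4 peak in every one of the 23 repeats. The stretch ended close to the higher-coordinate end of His2A. In complete repeats its last base lay between 74 bp before and 76 bp after that end (median 1 bp after, n = 19).

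The third stretch covered His4 and His3. In complete repeats it began between 144 bp before and 145 bp after the lower-coordinate end of His4 (median 97 bp before). Bases from 548 to 296 bp before the higher-coordinate end of His3 lay under a peak in all 23 repeats. The last peak of a repeat ended between 296 bp before and 15 bp after the end of His3 (median 35 bp before). Beyond 15 bp no repeat was covered. In 10 repeats a gap between peaks lay just before His3, counted whole whether it fell in the space or in the longer His4 entries. In repeat 3 it was 187 bp long. The 9 others were repeats 13, 14 and 16 to 22, where the gap was 57 to 72 bp long and its last bare base stood 21 to 29 bp before His3.

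**Figure D4:**
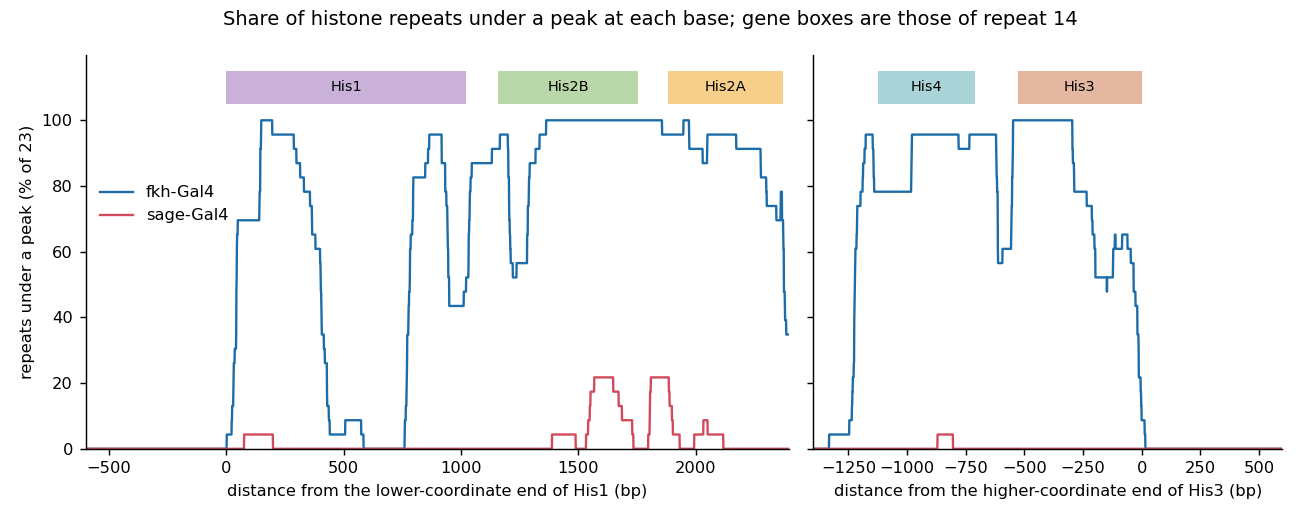
Percent of the 23 repeats under a peak at each base, by distance in bp from the lower-coordinate end of His1 (left) and from the higher-coordinate end of His3 (right), for fkh-Gal4 and sage-Gal4. The boxes show the genes of repeat 14. The fkh-Gal4 line is at 0% before His1, from 585 to 759 bp inside it and from 16 bp after His3 on, and at 100% from 1363 to 1856 bp. The sage-Gal4 line reaches 5 of 23 repeats at 2 places. They lie in His2B and in the upper part of the space between His2B and His2A, up to the first bases of His2A.

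The sage-Gal4 peaks also stood at repeated places. A place in the upper part of His2B, between 1533 and 1734 bp from the lower-coordinate end of His1, held a peak in repeats 3, 5, 20, 21 and 23. Their genes are His2B:CG33908, His2B:CG33904, His2B:CG33874, His2B:CG33872 and His2B:CG33868. A second place, between 1798 and 1931 bp, covered the upper part of the shared promoter space and the nearest bases of His2A in repeats 14, 18, 19, 20 and 21. Its genes are His2A:CG33838, His2A:CG33850, His2A:CG33853, His2A:CG33856 and His2A:CG33859. These peaks entered His2A by 4 to 50 bp. Repeats 20 and 21 had both.

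The remaining 5 peaks stood alone at their place or nearly so. Repeat 11 had a peak in His2A:CG33829 and repeat 20 another in His2A:CG33856, at 1994 to 2050 bp and 2033 to 2117 bp from the lower-coordinate end of His1. Repeat 3 had a peak of 66 bp in His4:CG33907. Repeat 21 had a further peak in His2B:CG33872 and one of 123 bp in His1:CG33858 (21526535 to 21526657), which makes 4 peaks, the most of any repeat with this driver. In repeat 21 sage-Gal4 peaks covered 13.7% of the sequence from His1 to His3.

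By repeat, fkh-Gal4 peaks were present in 19 of 19 complete repeats (exact interval 82.4 to 100%) and sage-Gal4 peaks in 6 of 19 (31.6%, 12.6 to 56.6). The repeats are nearly identical and not independent of each other, and these intervals cover counting error only. No share for other sequence of this length is given here. In the 4 repeats with a pseudogene, peaks were present in 4 with fkh-Gal4 and in 3 with sage-Gal4. Each repeat held the centres of 3 to 7 fkh-Gal4 peaks (median 5), which covered 58.6% to 80.3% of the sequence from His1 to His3 (median 72.4%, n = 23). The highest share was that of repeat 6, whose first gene is His1:CG33813.

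Every sage-Gal4 peak of the array lay inside a fkh-Gal4 peak, 15 of 15 (100%, exact interval 78.2 to 100). Conversely, 11 of 120 fkh-Gal4 peaks held a sage-Gal4 peak (9.17%, 4.67 to 15.8). The overlap shares of the whole lists are not given here, so these values have no baseline. Of the sage-Gal4 centres, 13 of 15 stood from His2B to His2A. There fkh-Gal4 peaks covered 92.5% of the bases of His2B, 97.4% of the space and 92.5% of the His2A place. With such coverage an overlap was nearly fixed in advance. The enclosing peaks were up to 1579 bp wide. A fkh-Gal4 peak centre lay within 200 bp of the sage-Gal4 centre for 10 of the 15. With a reciprocal overlap of 50%, 0 of 15 sage-Gal4 and 0 of 120 fkh-Gal4 peaks were shared. Against the widest fkh-Gal4 peaks alone, as many as the sage-Gal4 list has, 15 of 15 overlapped. That cut kept 85 of the 120 fkh-Gal4 peaks of the array, which are wide, so it could hardly lower the overlap.

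Histone pseudogenes had fkh-Gal4 peaks as well. Of the 8 in the table, 4 lie inside the array and 4 outside it, and each was overlapped by 1 or 2 fkh-Gal4 peaks and by 0 sage-Gal4 peaks. Over all protein-coding genes the overlapped share is 8.15% with fkh-Gal4 and 3.71% with sage-Gal4. At the share of sage-Gal4, 8 pseudogenes are too few to tell a difference. In the His2A place the covered share was 76.6% at His-Psi:CR33802, 64.6% at His-Psi:CR33811 and 18.6% at His-Psi:CR33805, against a lowest value of 83.0% among the 20 His2A genes. His-Psi:CR33867, in the His4 place of repeat 23, spans 1999 bp and was covered over 24.9%.

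Outside the array, the pseudogenes marked the nearest fkh-Gal4 peaks. On the higher-coordinate side the next peak began 1223 bp after His3:CG33866 and lay in His-Psi:CR31614 (21542864 to 21543688). On the other side there was no peak for 10964 bp, and the next (21405684 to 21405988) overlapped His-Psi:CR31754. The nearest sage-Gal4 peaks lay 12061 bp before and 19179 bp after the array.

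A few histone genes outside the repeats were examined for comparison. Variant and replication-independent histones are made outside S phase or for special chromatin. The 6 examined were His2Av (H2A variant), His3.3A and His3.3B (H3.3), His4r (an H4 gene outside the array), BigH1 (the embryonic linker histone) and cid (the centromeric H3). With either driver, 0 of 6 had a peak over the gene, where the share of all protein-coding genes is 8.15% with fkh-Gal4 and 3.71% with sage-Gal4. Likewise 0 of 6 had a peak within 1 kb of a gene end, where that share is 8.55% with fkh-Gal4 and 4.06% with sage-Gal4. At such shares 6 genes are too few to tell a difference.

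Genes for the control and processing of histone mRNA were also looked at, 18 in all. They were mxc, mute, FLASH and Clamp (histone locus body), Slbp, Lsm10, Lsm11 and snRNA:U7 (binding and cleavage of the histone mRNA end), Sym, Cpsf73, Cpsf100 and CstF64 (3′ end formation), CycE, Cdk2 and E2f1 (entry into S phase), and abo, wge and Spt6 (histone gene or chromatin regulation). A peak overlapped 1 of 18 genes with each driver, a share near those of all protein-coding genes (8.15% with fkh-Gal4 and 3.71% with sage-Gal4). It was CycE in both lists. CycE, which encodes cyclin E, is 20570 bp long. Its fkh-Gal4 peak of 101 bp (2L, 15731763 to 15731863) and its sage-Gal4 peak of 72 bp (15731815 to 15731886) overlapped. E2f1 had a fkh-Gal4 peak of 177 bp (3R, 21619239 to 21619415) outside the gene, within 1 kb of its lower-coordinate end. The other 16 genes had no peak in the body or within 1 kb of an end.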

How the data were processed

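The data are 2 peak lists of Rib-GFP ChIP-seq in whole embryos, 1 per driver, deposited by the authors as chromosome, start and end positions with no score. The submitters' processing notes name BWA, MACS2 2.1.0.20140616 and dm6. Not given in the sources used here are the threshold, the use of the inputs and the treatment of reads with several places. The inputs were not analysed here.

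Starts were converted to a 1-based count. Genes came from a RefSeq table of the same assembly (Release 6 plus ISO1 MT) without strand, so gene ends are named by coordinate. A gene was counted when a peak overlapped it by 1 bp or more. No sequence was used here, so the planned motif search in promoters was not run, and no test was made between 2 single lists. Shares carry exact (Clopper-Pearson) 95% intervals, from SciPy 1.17.1, which cover counting error only. Overlap counts were checked on simulated peaks.

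The members, the 2 lists of other genes and the comparisons were chosen with earlier results of these data known. Named genes are those with the widest and narrowest peak, the first and last, those with extreme covered shares, those with sage-Gal4 peaks and all members of the 2 lists. Alternatives were windows around gene ends, peak centres, wider peaks, merging, complete repeats and stricter overlaps.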

Additional observations from a re-analysis of the deposited data

How the results depend on the processing

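Depth is unknown, so a missing peak is not shown to be missing from the embryos. Of the summary values recomputed, 18 stayed within the exact interval of the value given and 16 moved out of it. For the share of the array under peaks, that interval counted single bases as if they were independent, so it is too narrow. The tally is therefore no measure of how robust the values are. Counting a gene only where a peak centre lay inside it left 63.1% of histone genes with fkh-Gal4, since wide peaks have 1 centre. With sage-Gal4, windows of 1 kb and 2 kb around gene ends raised the share to 30.6% and 37.8%, and the wider peaks alone lowered it to 6.31%. The share of the array under fkh-Gal4 peaks was 66.9% after merging peaks within 500 bp, 50.6% with wider peaks alone, 56.4% in complete repeats and 56.4% without the longest space. With sage-Gal4 it was 1.61% after merging, 0.785% with wider peaks alone and 1.44% without the longest space. Assigning fkh-Gal4 peaks to the place overlapped most put 90% in genes or pseudogenes. Wider peaks alone left sage-Gal4 peaks in 10.5% of complete repeats. Sage-Gal4 peaks matched to a fkh-Gal4 peak fell to 0% by reciprocal overlap and to 66.7% by centres, and fkh-Gal4 peaks matched to a sage-Gal4 peak to 0% by reciprocal overlap. Each enclosing fkh-Gal4 peak was more than 2 times as wide as the sage-Gal4 peak in it. Of the values for single gene classes and places, 72 stayed within their intervals and 18 moved. No paired analysis was possible because there is 1 list per driver.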
